A study of Mus musculus with 3 samples.

Results

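The T-bet network of T helper 1 (Th1) cells was described through 10 genes for transcription factors: the T-box factors Tbx21 and Eomes, the Runt factors Runx1, Runx2 and Runx3 with their binding partner Cbfb, and Hlx, Zeb2, Prdm1 and Bhlhe40. The genes were listed for their known roles and matched by symbol, and all 10 were found among the 50600 genes of the count tables. The samples were 3 libraries of RNA from Th1 primary cells of C57BL/6NJ mice, for which the file headers name a time of 48 h, with no other group to set them against. The labels number them as biological replicates 1, 2 and 3 but give all 3 the same donor identifier, and name neither the age nor the sex of the mice. No source names separate animals or cultures for them, and each p-value below sets 1 library against another and covers counting error only, not the spread between replicates.

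Tbx21 encodes T-bet, the factor that commits CD4 T cells to the Th1 fate; it is induced through interferon gamma signalling, sustained by interleukin 12 and STAT4, and opens the interferon gamma gene Ifng. Runx factors bind DNA as heterodimers with CBF beta, the product of Cbfb, and Runx3 acts with T-bet to activate Ifng and to silence Il4. Eomes is the T-box relative of T-bet that is best known in CD8 T cells and natural killer cells, Hlx is a homeobox partner of T-bet, Zeb2 and Blimp-1 (Prdm1) act in terminal differentiation, and Bhlhe40 promotes inflammatory cytokine output while repressing Il10.

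The Runx genes share a feature in their promoters. RefSeq windows of 300 bases (250 before to 50 after each start, build GRCm38.p6) were matched for 9 of the 10 genes, in 14 windows. The upstream window of each Runx gene held 2 copies of the Runx motif TGTGGT on 1 strand, with starts 8 bases apart, an arrangement found in 7 of 32851 mouse windows (0.0213%). A 4th of the 7, for Gm16225, overlaps the window of Runx3 on the other strand. Only this spacing, the one in the Runx windows, was counted, so its share describes the arrangement and tests nothing. The motif alone was found on either strand in 16.8% of windows, and all motifs below were likewise sought on both strands. The stretches are shown 5′ to 3′ on the strand of the gene because the paralogs can be compared base by base. Capitals mark the motif, which reads ACCACA on this strand.

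Runx1: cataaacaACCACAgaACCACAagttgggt

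Runx2: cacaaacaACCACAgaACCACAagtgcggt

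Runx3: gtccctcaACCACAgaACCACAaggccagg

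They lie at chr16:92826025-92826054 (minus strand), chr17:44814583-44814612 (minus strand) and chr4:135120503-135120532 (plus strand). The first motif begins 29 bases into the transcribed part in Runx1 and 24 bases into it in Runx2, and at position -134 before the start in Runx3. Neither of the second windows of Runx1 and Runx3, at their internal starts, held the motif. The core of the T-box motif, GGTGTG (whose letters can overlap those of TGTGGT), was found in 3 windows of Zeb2, some of which overlap, and in none of the other member windows, against 19.0% of all windows. The E-box CAGGTG, the motif read by ZEB factors, was found in 4 member windows, those of Tbx21, Prdm1, Runx1 and Runx3, and in that of Ifng, against 20.2% of all windows. The E-box CACGTG, which Bhlhe40 can bind, was found in the upstream window of Runx1, against 7.15% of all windows. The 250 bases before the starts of Tbx21 (chr11:97115332-97115581, minus strand) and of its target Ifng (chr10:118440796-118441045, plus strand) are shown with CAGGTG in capitals, since the ratio of these genes is followed below.

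Tbx21: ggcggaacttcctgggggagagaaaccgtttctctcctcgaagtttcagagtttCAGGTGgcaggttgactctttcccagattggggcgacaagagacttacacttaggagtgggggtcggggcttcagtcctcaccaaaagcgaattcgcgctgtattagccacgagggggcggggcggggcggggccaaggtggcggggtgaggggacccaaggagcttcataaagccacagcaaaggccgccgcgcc

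Ifng: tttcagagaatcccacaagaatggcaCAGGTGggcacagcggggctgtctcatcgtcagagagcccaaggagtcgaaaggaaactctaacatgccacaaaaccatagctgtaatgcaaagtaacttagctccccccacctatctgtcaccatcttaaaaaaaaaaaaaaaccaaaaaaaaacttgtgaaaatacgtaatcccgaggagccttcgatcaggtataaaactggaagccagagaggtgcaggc

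Depth and strand limit what these libraries show. Replicates 1 and 3 held 4742025 and 3543816 counts, and replicate 2 held 50627. In that order 3 counts, the limit set here for a count of 0, were worth 0.633, 0.847 and 59.3 CPM (counts over the library total, on the usual scale). The libraries did not hold like RNA although they share a donor identifier: Xist had 691, 18 and 3 counts in replicates 1, 2 and 3, and the Y-linked gene Ddx3y had 187, 1 and 82. Counting was strand-specific, and genes with 90% or more of their exons covered by a longer gene of the other strand had more counts per kb than that gene in 211 of 289 pairs in replicate 1 and 217 of 290 in replicate 3. Whether fragments were assigned to the strand opposite to their gene was not tested, and the levels below are those of the annotated strand as deposited. In bulk RNA, fewer cells of a kind and less RNA per cell cannot be told apart.

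The cells carried T cell markers. All 10 genes of a T cell list, among them Cd3e, Trac and Cd4, reached 1 TPM (counts per gene length, on the same scale with the same sum in each library) in every library. All 5 natural killer cell markers and Cd8a had no count in any library, while Cd8b1 had 21, 1 and 13 counts. Of 6 B and plasma cell markers, Ms4a1 and Jchain had no count, Cd79a had 10, 0 and 22 counts, and Xbp1, which T cells also express, had 236, 6 and 87. Of 6 myeloid markers, Lyz2, Itgam, Adgre1 and Cd14 had no count, and the list summed to 109, 84.5 and 169 TPM, nearly all from Csf1r, which has 17.8% of its exonic length under opposite-strand exons. Between replicates 1 and 3, compared as described further on, 8 of the 10 T cell markers were lower in replicate 3 on scaling over all genes, where 9.79% of genes were, and 3 on scaling by genes without opposite-strand exons, where 3.16% were. Cd79a and Csf1r were higher under both, as were 24.9% and 27.8% of genes. The part of other cells in the levels of the factors was not tested.

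The 10 factors fell into an abundant set, a low set and a set at the limit of detection. Bhlhe40 and Tbx21 led, Cbfb and Runx3 followed, Eomes, Runx1 and Runx2 stood between 2 and 8 TPM in the deep libraries, and Zeb2, Hlx and Prdm1 stayed below 1 TPM there. A level of 1 TPM was reached in every library by 6 of the 10 genes, against 14.8% of all genes of the tables, and in both replicates 1 and 3 by 7 of 10, against 24.2%. In replicate 2 that level asks only for 1 count, here and for the gene lists above and below. The 7th was Runx2, which had no count in replicate 2.

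**Figure D1:**
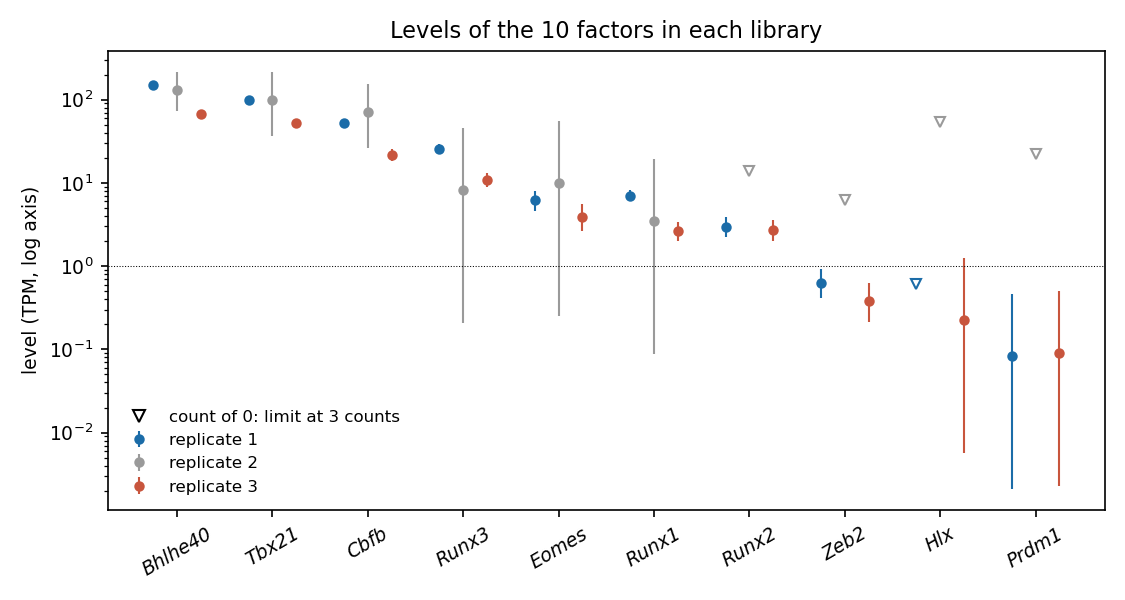
Level of each factor in TPM (log axis) in replicates 1, 2 and 3, with exact 95% intervals that cover counting error only; open triangles mark the limit at 3 counts where a library had a count of 0, and the dotted line marks 1 TPM. Bhlhe40 and Tbx21 are highest in all 3 libraries, and Hlx, Zeb2 and Prdm1 lie below 1 TPM in replicates 1 and 3.

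Tbx21 (chromosome 11, 97098071 to 97115331, minus strand, mm10) had 522, 6 and 255 counts in replicates 1, 2 and 3, which gave 98.0, 99.6 and 52.0 TPM. Its level lay above that of 90.4% of the genes with a count in replicate 1 and of 87.3% in replicate 3. Eomes (chromosome 9, 118478212 to 118486132, plus strand) had 55, 1 and 32 counts, or 6.18, 9.94 and 3.91 TPM. Tbx21 was thus 15.9-fold above Eomes in replicate 1 and 13.3-fold in replicate 3, with log2 ratios of 3.99 (exact 95% interval 3.58 to 4.41) and 3.73 (3.20 to 4.31), and replicate 2 gave 3.32 (0.28 to 8.85) on a single count of Eomes. The intervals of all 3 libraries overlap. Of the pair, Tbx21 made up 94.1%, 90.9% and 93.0% of the summed level.

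Across the T-box family, Tbx21 stood far above its relatives. The list matched 17 genes, of which 12 had no count in any library, Tbx6 had 1, 0 and 3 counts and Tbx10 had 1, 0 and 0. The family's only other gene at 1 TPM in every library besides Tbx21 and Eomes was Mga, a large T-box protein of the MAX network that is expressed in most cells, at 13.4, 2.69 and 6.22 TPM. Mga was higher than Eomes in both deep libraries, with log2 ratios of Eomes to Mga of -1.11 (-1.54 to -0.71) and -0.67 (-1.26 to -0.12). The ratio of Tbx21 to Mga was 7.33-fold in replicate 1 and 8.36-fold in replicate 3.

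Runx3 was the main Runx gene. Runx3 (chromosome 4, 135120652 to 135177990, plus strand), which silences Cd4 in the CD8 lineage and works with T-bet in Th1 cells, had 276, 1 and 106 counts, or 25.8, 8.25 and 10.7 TPM. Runx1 (chromosome 16, 92601466 to 92826149, minus strand), the Runx gene of blood stem cells and thymocytes, had 177, 1 and 61 counts, or 6.99, 3.49 and 2.62 TPM. Runx2 (chromosome 17, 44495987 to 44814797, minus strand), best known from bone, had 56, 0 and 47 counts, or 2.96, 0 and 2.70 TPM. Runx1 was above Runx2 in replicate 1 and level with it in replicate 3: the log2 ratio of Runx1 to Runx2 was 1.24 (0.80 to 1.70) in replicate 1 and -0.04 (-0.62 to 0.54) in replicate 3, where the interval holds 0.

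Counted per length, Runx3 made up 72.1% of the summed Runx level in replicate 1 and 66.9% in replicate 3. Runx1 made up 19.6% and 16.3%, and Runx2 8.29% and 16.8%. Replicate 2 held 2 Runx counts in all and is not read for shares. Runx3 exceeded Runx1 by a similar factor in both deep libraries, 3.69-fold and 4.11-fold, and the change of this log2 ratio from replicate 1 to replicate 3 was 0.16 (-0.39 to 0.71). Its excess over Runx2 fell from 8.71-fold to 3.98-fold, a change of -1.13 in log2 (-1.81 to -0.44), so that interval does not hold 0.

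**Figure D2:**
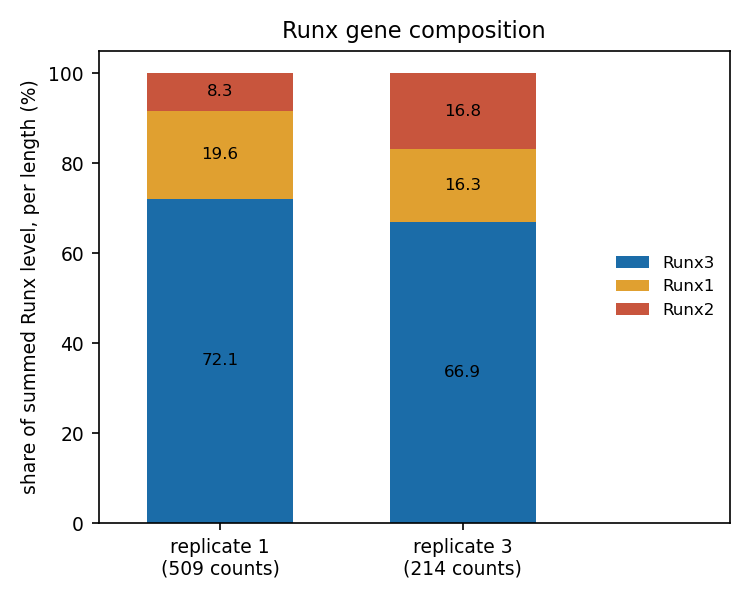
Share of the summed level of Runx1, Runx2 and Runx3, in counts per length, for replicates 1 and 3, as stacked bars that start at 0 and sum to 100%. Runx3 takes 72.1% and 66.9%, and the share of Runx2 is 8.3% in replicate 1 and 16.8% in replicate 3.

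Cbfb (chromosome 8, 105170674 to 105217989, plus strand), which encodes the shared subunit that stabilizes Runx factors on DNA, had 388, 6 and 149 counts, or 52.1, 71.2 and 21.7 TPM. It was 2.02-fold above Runx3 in each of replicates 1 and 3. Its level was 1.46 times that of the 3 Runx genes together in replicate 1 and 1.35 times in replicate 3. This order turns when gene length is left out: in plain counts Cbfb had 0.762 and 0.696 of the summed Runx counts, since the Runx genes have exonic lengths of 5003 to 11827 bp and Cbfb has 3480 bp. The log2 ratio of Cbfb to Runx3 changed by less than its counting error, with an interval of -0.44 to 0.44.

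Of the remaining factors, Bhlhe40 alone was abundant. Bhlhe40 (chromosome 6, 108660629 to 108666925, plus strand) had 1511, 15 and 629 counts, or 150 TPM in replicate 1, 132 in replicate 2 and 67.8 in replicate 3, above 93.5% of the detected genes of replicate 1. Its paralog Bhlhe41 had no count in any library. Zeb2 (chromosome 2, 44983632 to 45117395, minus strand), a zinc-finger repressor that T-bet induces in effector cells, had 27, 0 and 15 counts, or 0.632, 0 and 0.382 TPM. Its paralog Zeb1, which is linked to resting and memory T cells, was 13.1-fold and 12.1-fold above it in replicates 1 and 3.

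Hlx and Prdm1 were at or under the limit of detection. Hlx (chromosome 1, 184727140 to 184732619, minus strand) had 0, 0 and 1 counts. In replicate 1, 3 counts of it were worth 0.615 TPM, and the exact upper limit was 0.756 TPM. Prdm1 (chromosome 10, 44437177 to 44528501, minus strand) had 1, 0 and 1 counts, or 0.0837, 0 and 0.0909 TPM. In replicate 2, 3 counts were worth 54.4 TPM for Hlx, 22.2 TPM for Prdm1 and 6.21 TPM for Zeb2, so that library does not bear on these genes. At this depth none of the 3 genes can be called absent.

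The ratios within each library place the factors on 1 scale that needs no scaling between libraries. Bhlhe40 stood above Tbx21 in both deep libraries: the log2 ratio of Tbx21 to Bhlhe40 was -0.61 (-0.76 to -0.47) in replicate 1 and -0.38 (-0.60 to -0.17) in replicate 3, and in replicate 2 it was -0.40 with an interval that spans 0 (-2.06 to 1.04). Tbx21 exceeded Cbfb 1.88-fold and 2.39-fold, Runx3 3.80-fold and 4.84-fold, and Runx1 14.0-fold and 19.9-fold. Against Runx2 the excess was 33.1-fold in replicate 1 and 19.3-fold in replicate 3. Against Zeb2 it was 155-fold and 136-fold, on 27 and 15 counts of Zeb2. Against Prdm1 the log2 ratio was 10.19 (7.71 to 15.50) and 9.16 (6.67 to 14.47) on 1 count of Prdm1 each. Against Hlx, Tbx21 was 159-fold higher in replicate 1 when the count of 0 was set to 3 counts, and the exact lower limit was 129-fold. In replicate 3 the log2 ratio was 7.87 (5.38 to 13.18) on 1 count.

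In the order of the means of replicates 1 and 3 (Bhlhe40, Tbx21, Cbfb, Runx3, Eomes, Runx1, Runx2, Zeb2, Hlx, Prdm1), each of the first 4 differed from the next in both deep libraries by more than its counting interval. Eomes and Runx1 were not told apart, with log2 ratios of -0.18 (-0.64 to 0.27) and 0.58 (-0.09 to 1.22). Per length, Runx1 exceeded Runx2 in replicate 1 but not in replicate 3. In plain counts Runx1 had 177 and 61, Eomes 55 and 32, and Runx2 56 and 47, so the order of these 3 depends on gene length. Runx2 exceeded Zeb2 in both, 4.68-fold and 7.07-fold, and the order among Zeb2, Hlx and Prdm1 could not be set at this depth. For 6 of the 8 factors with counts in both deep libraries the ratio to Tbx21 changed between replicates 1 and 3 by less than counting error, which for Prdm1, at 1 count in each, is wide. The exceptions were Runx1 (change of the log2 ratio of Tbx21 to it 0.50, interval 0.02 to 1.00) and Runx2 (-0.78, interval -1.41 to -0.15), which moved in opposite directions. The ratio to Tbx21 was not followed over all genes, so these counts do not set the factors apart. On TMM scaling, described below, 4473 of 12910 genes differed between these 2 libraries.

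**Figure D3:**
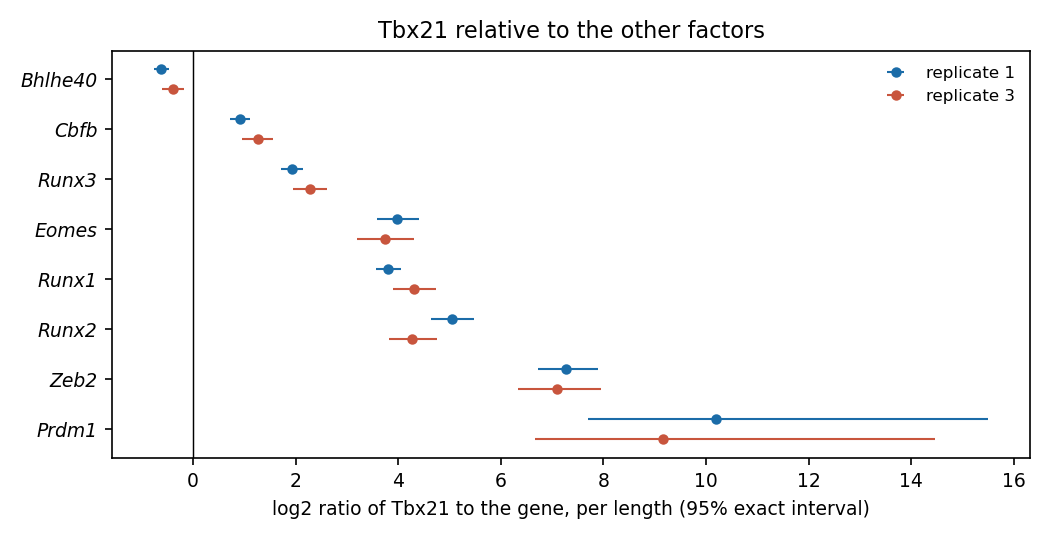
Log2 ratio of Tbx21 to each other factor with counts in both deep libraries, per gene length, in replicate 1 and replicate 3 with exact 95% intervals. Bhlhe40 lies to the left of the line at 0, all other factors lie to the right, and the points of Runx2 and Runx1 lie apart between the libraries in opposite directions.

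Replicate 3 was then compared with replicate 1 gene by gene, which asks only how these 2 libraries differ. An exact two-sided binomial test on totals scaled by the trimmed mean of M values (TMM), with Benjamini-Hochberg adjustment over 12910 genes, was run on the 8 factors with at least 10 counts over both libraries. It put 1 factor lower in replicate 3, where 9.79% of all tested genes were called lower, and 1 higher, where 24.9% were called higher. Bhlhe40 was the lower one, at -0.18 in log2 (adjusted p = 0.029, exact binomial test), and Runx2 the higher one, at 0.83 (adjusted p = 0.018, exact binomial test). Tbx21 was not called, at 0.05 in log2 (adjusted p = 0.82, exact binomial test). At an unadjusted p under 0.05, Cbfb and Runx1 were also lower. The median over the 8 factors was -0.06, and over all tested genes -0.01.

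These calls depend on the scaling. When the libraries were scaled on genes without opposite-strand exons, all log2 values rose by 0.15 and the share of higher among all calls went from 71.7% to 89.8%. Bhlhe40 then stood at -0.03 (adjusted p = 0.86, exact binomial test). No factor was called lower, against 3.16% of genes, with 0 also at an unadjusted p under 0.05. Runx2 alone was called higher, at 0.98 (adjusted p = 0.0042, exact binomial test), against 27.8% of genes. DESeq2 size factors gave 1 lower (Bhlhe40, adjusted p = 0.045, exact binomial test), beside 1175 of 12910 genes. When replicate 2 took the place of replicate 1 or 3, 0 factors were called by the exact test, adjusted or not. Of all genes, 576 of 11303 were called without replicate 1 and 106 of 11982 without replicate 3. The depth of replicate 2 leaves little to detect. On plain totals, 5 factors were lower in replicate 3, where 51.7% of all tested genes were: Tbx21, Runx1, Runx3, Cbfb and Bhlhe40, with log2 CPM ratios of -0.61, -1.12, -0.96, -0.96 and -0.84. Among 5857 genes that share no exon with the other strand and reached 50 counts, the median of that ratio was -0.84 (quartiles -1.04 and -0.64).

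Genes on the other strand of 4 factors had a larger share of the counts in replicate 3 than in replicate 1. Tbx21, Runx3, Cbfb, Hlx and Prdm1 share no exonic position with an opposite-strand gene, and the other 5 factors share 0.896% to 5.87% of their exonic length with 6 genes. Runx2 has the largest share, 519 bp (5.87%) under Runx2os1, a gene with 54, 1 and 68 counts. Eomes shares 118 bp with Gm33460 (84, 0 and 104 counts), Runx1 shares 106 bp with Gm26626 (285, 1 and 310 counts), and Bhlhe40 shares 118 bp with 0610040F04Rik (2940, 14 and 3633 counts). Zeb2 shares 467 bp with Zeb2os, which had 0, 0 and 1 counts, and 4 bp with Gm27761, which had none.

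In counts per kb, 4 of the 6 opposite-strand genes exceeded their factor in both deep libraries. Among pairs embedded for 90% or more this order held in 211 of 289 in replicate 1 and 217 of 290 in replicate 3. Gm33460 had 157 counts per kb in replicate 1 against 13.2 for Eomes, Gm26626 had 400 against 15.0 for Runx1, Runx2os1 had 68.2 against 6.34 for Runx2, and 0610040F04Rik had 1367 against 321 for Bhlhe40. Their log2 CPM ratios of replicate 3 to replicate 1 were 0.73, 0.54, 0.75 and 0.73, all above 0, and the median of the 203 genes embedded for 90% or more was 0.79. The rise is not particular to these factors. It was 0.55 for Kdm6bos (opposite Kdm6b), 0.46 for Gm13256 (opposite Gata3) and 0.74 for Gm44851 (opposite Furin). Serbp1 (opposite Il12rb2) went the other way, at -0.69. Runx2 is the factor with the largest overlap and the only one of the 8 tested above 0 on plain totals, at 0.17 (-0.42 to 0.75). How much of its difference belongs to the shared stretch was not tested, because gene counts do not resolve it.

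**Figure D4:**
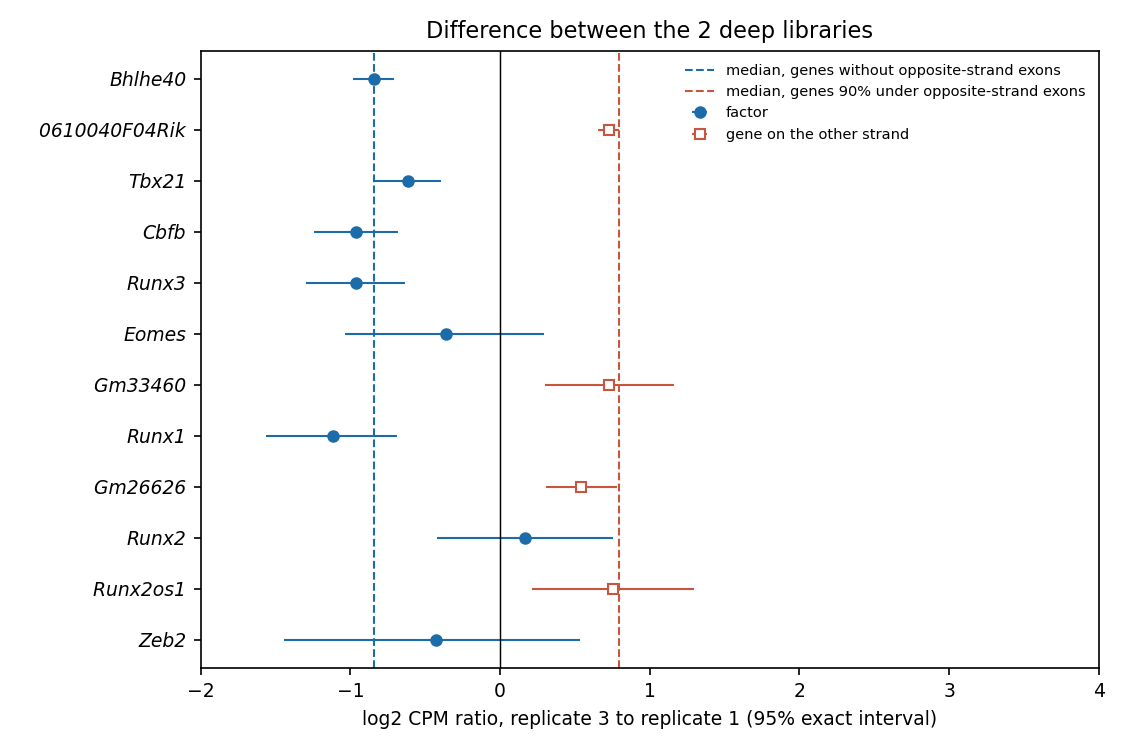
Log2 CPM ratio of replicate 3 to replicate 1, with exact 95% intervals, for the 8 factors with at least 10 counts (filled circles) and for genes that share exonic positions with them on the other strand (open squares). The factors other than Runx2 lie below 0 and the 4 opposite-strand genes above it, and the dashed lines mark the medians of -0.84 and 0.79.

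Transcripts of proteins described to bind or assist T-bet ranged from the level of Tbx21 down to the limit of detection. Of 8 such genes, 3 (Runx1, Runx3 and Hlx) are factors already described. Of all 8, 5 reached 1 TPM in all 3 libraries and 6 in both deep ones, beside 14.8% and 24.2% of all genes. Of the 7 tested, 0 differed between replicates 1 and 3 on TMM scaling or with DESeq2 size factors, and 1 (Runx1) did at an unadjusted p under 0.05, beside 4473 of 12910 genes that differed on TMM scaling. On plain totals 5 of the 7 were lower, as were 51.7% of all genes. The median log2 difference of the 7 on TMM scaling was -0.10. Smarca4, the ATPase of the BAF remodelling complex, was closest to Tbx21, at 87.6, 82.9 and 44.0 TPM, and Tbx21 exceeded it 1.12-fold in replicate 1 and 1.18-fold in replicate 3 (log2 intervals 0.01 to 0.31 and 0.02 to 0.46). That order turns without gene length, where the mean log2 ratio was -1.18. Ets1, a cofactor for Ifng, and Kdm6b, an H3K27 demethylase, stood 3.44-fold and 4.62-fold below Tbx21 in replicate 1 and 3.93-fold and 4.88-fold below it in replicate 3. The rival lineage factors Gata3 and Bcl6, which T-bet binds, stood 12.3-fold and 56.2-fold below it in replicate 1 and 11.0-fold and 62.4-fold below it in replicate 3. None of these 5 ratios changed between replicates 1 and 3 beyond counting error. Kdm6b, Gata3 and Bcl6 share 4.11%, 3.90% and 0.313% of their exonic length with opposite-strand genes, and Ets1 and Smarca4 share none.

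The 12 symbols for Runx cofactors matched 11 genes, of which 9 reached 1 TPM in both deep libraries, beside 24.2% of all genes. After Cbfb, the highest were Aes, a short Groucho protein (38.4, 12.4 and 23.3 TPM), Sin3a, a corepressor scaffold (37.9, 46.0 and 17.3 TPM), and Zbtb7b, the CD4 lineage factor ThPOK that opposes Runx3 (28.3, 22.2 and 16.2 TPM). The log2 ratio of Runx3 to Zbtb7b was -0.14 (-0.37 to 0.10) in replicate 1 and -0.59 (-0.95 to -0.23) in replicate 3, and the interval excludes 0 in replicate 3 only. The ratio itself changed by -0.45 (-0.88 to -0.02). Of the 10 cofactors tested, 1 was lower in replicate 3 under both TMM scalings (Hdac3, named after its values were seen, log2 -0.64 and -0.49). On these scalings 9.79% and 3.16% of all tested genes were lower. Aes was higher on scaling by genes without opposite-strand exons only (0.39, adjusted p = 0.030, exact binomial test), where 27.8% of all tested genes were.

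Genes that T-bet is described to activate were unevenly present. Of 20 such genes, 3 of them factors already described, 8 stood at 1 TPM or more in all 3 libraries and 12 in both deep ones, beside the 14.8% and 24.2% of all genes. The chemokines Ccl3 (363, 216 and 148 TPM) and Ccl4 (191, 688 and 81.5 TPM) stood above Tbx21 in all 3 libraries. For Ccl3 the interval in replicate 2 spans 0, with a log2 ratio of Tbx21 to it of -1.11 (-3.19 to 1.15) on 4 counts. The interleukin 2 receptor chain Il2rb did not differ from Tbx21 beyond counting error, with log2 ratios of Tbx21 to it of 0.05 (-0.13 to 0.22) and 0.23 (-0.03 to 0.49). The protease gene Furin stood 1.93-fold and 1.94-fold below Tbx21. Without gene length the mean log2 ratios of Tbx21 to Ccl4, Il2rb and Furin turned, to 1.11, -0.0223 and -0.93. That to Ccl3 went from -1.70 to -0.00092, so the excess of Ccl3 rests on gene length.

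Ifng itself had 150, 2 and 44 counts, or 54.1, 63.8 and 17.2 TPM. Tbx21 exceeded it 1.81-fold in replicate 1 and 3.02-fold in replicate 3, and the log2 ratio rose by 0.74 between them (0.19 to 1.30). Ifng was called lower in replicate 3 on TMM scaling (log2 -0.68, adjusted p = 0.018, exact binomial test) but not on scaling by genes without opposite-strand exons (-0.54, adjusted p = 0.094, exact binomial test). Ccl3 likewise lost its call (adjusted p = 0.014 and 0.28, exact binomial test). Il12rb2, the inducible interleukin 12 receptor chain, went the other way: Tbx21 exceeded it 8.65-fold in replicate 1 and 3.38-fold in replicate 3, and 40.0% of the exonic length of Il12rb2 lies under exons of Serbp1. These 3 were the calls among the 13 targets tested, 2 lower and 1 higher, where 9.79% of all genes were lower and 24.9% higher, and the median log2 difference of the 13 was -0.13, against -0.01 over all genes. On the other scaling Il12rb2 alone was called, as higher, where 27.8% of all genes were. Ifng was there the 1 target lower at an unadjusted p under 0.05. The share of Serbp1 in the count of Il12rb2 was not tested.

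Further down stood Fasl, the death ligand (19.0, 42.6 and 10.5 TPM), the cytotoxic granule gene Nkg7 (12.3, 0 and 8.88 TPM), and the interleukin 18 receptor chains Il18r1 (7.76, 0 and 4.63 TPM) and Il18rap (4.50, 0 and 1.73 TPM). Granzyme B (Gzmb) had 11, 0 and 3 counts, Twist1 had 6, 0 and 2, Cxcr6 had 2, 0 and 6, Cxcr3, the Th1 homing receptor, had 4, 0 and 2, Ccl5 had 2, 0 and 0, Havcr2 had 1, 0 and 1, and S1pr5 had none. Tbx21 exceeded Cxcr3 with log2 ratios of 6.50 (5.14 to 8.39) and 6.47 (4.60 to 9.52).

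**Figure D5:**
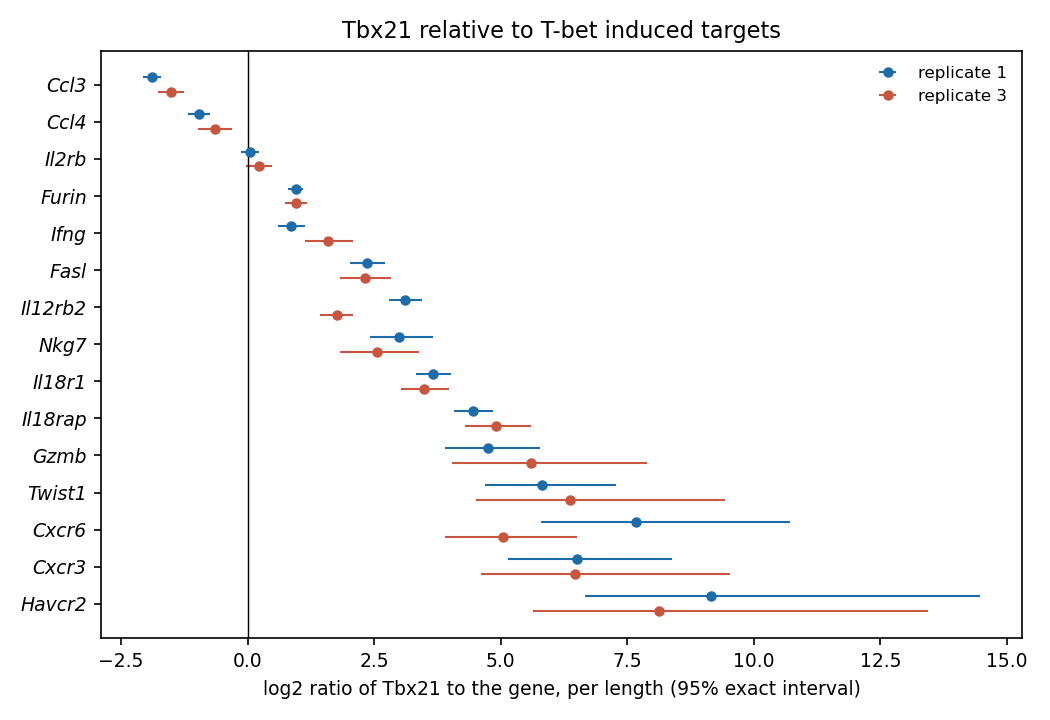
Log2 ratio of Tbx21 to each described target gene with counts in both deep libraries, per gene length, in replicates 1 and 3 with exact 95% intervals; members of the factor list are left out. Ccl3 and Ccl4 lie left of 0, Il2rb lies at 0, and Il18r1, Il18rap, Gzmb, Twist1, Cxcr6, Cxcr3 and Havcr2 lie more than 3 log2 units to the right in both libraries.

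Genes that T-bet or Runx3 is described to hold down were not uniformly low. Of 10 genes, 7 stood at 1 TPM or more in both deep libraries and 5 in all 3, beside 24.2% and 14.8% of all genes. The highest was Il2, which drives T cell growth, at 861, 830 and 352 TPM, and the log2 ratio of Tbx21 to it was -3.14 (-3.28 to -3.00) in replicate 1 and -2.76 (-2.97 to -2.55) in replicate 3. Il4, a Th2 cytokine silenced by T-bet with Runx3, had 25, 2 and 24 counts, and Tbx21 exceeded it 10.3-fold in replicate 1 and 5.24-fold in replicate 3. That log2 ratio fell by 0.97 (interval of the change -1.87 to -0.07). The ratio to Il13 was 7.44-fold and 7.26-fold, a log2 change of -0.03 with a wide interval (-0.95 to 0.93) that overlaps that of Il4. Socs1, a brake on interferon signalling, stood 3.88-fold and 4.81-fold below Tbx21, and Il5 had 3, 0 and 0 counts. Of the 9 genes tested, Il2 was lower in replicate 3 under both TMM scalings (log2 -0.33 and -0.18, adjusted p = 2.44e-07 and 0.012, exact binomial test). Of all tested genes, 9.79% and 3.16% were lower. Il4 was higher on scaling by genes without opposite-strand exons (1.18, adjusted p = 0.026) but not on the other (1.03, adjusted p = 0.056, exact binomial test). Of all tested genes, 27.8% and 24.9% were higher. Il5 shares 27.1% of its exonic length with an opposite-strand gene.

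Of 8 genes described as repressed by Bhlhe40 or Blimp-1, 6 were at 1 TPM or more throughout, beside 14.8% of all genes. After Il2 the highest were Myc (233, 137 and 109 TPM), Tcf7, a factor of naive and memory cells (162, 94.4 and 77.7 TPM), and Ccr7, a lymph node homing receptor (113, 209 and 60.0 TPM). Tcf7 stood 1.66-fold and 1.49-fold above Tbx21 in replicates 1 and 3. Il10, which Bhlhe40 represses, had 1, 1 and 0 counts. Of the 7 tested, Il2 was the 1 gene called lower under the 2 TMM scalings, where 9.79% and 3.16% of all genes were.

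The receptors, kinases and factors upstream of Tbx21 were all detected: 14 of 14 stood at 1 TPM or more throughout, beside 14.8% of all genes. In replicate 2 this rests on 1 count each for Ifngr1, Ifngr2, Foxo1 and Tyk2, under the limit of 3 counts. In both deep libraries it was also 14 of 14, beside 24.2% of all genes. The highest after Tcf7, which also stands on this list, were the kinases Jak2 (143, 140 and 59.0 TPM) and Jak1 (64.6, 22.9 and 25.9 TPM) and the interferon-induced factor Irf1 (75.2, 62.3 and 29.7 TPM). On TMM scaling 4 of the 14 were called lower in replicate 3 (9.79% of all genes) and 1 higher (24.9%). On scaling by genes without opposite-strand exons 1 was lower (3.16%) and 2 higher (27.8%). The gene called lower under both was Stat4, chosen after its values were seen (log2 -0.64 and -0.49; adjusted p = 0.000631 and 0.0147, exact binomial test).

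The 3 genes whose levels over the 3 libraries were most like those of Tbx21 were Srrm1, Ciao2a and Ptprc. Likeness was the Euclidean distance in log2(TPM + 1) over 3 libraries, among 4680 genes free of opposite-strand exons that reached 100 counts, and the distances were 0.0553, 0.117 and 0.123. Srrm1, a splicing coactivator, stood at 98.8, 96.2 and 51.2 TPM, and Ptprc, the gene of CD45, stood at 107, 99.2 and 51.1 TPM. With 6 counts of Tbx21 in replicate 2, this likeness is mostly one of level.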

How the data were processed

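RNA sequencing counts of 3 libraries in 1 group were used, with replicate numbers from the labels. The authors deposited whole-number counts of read pairs per gene, made with featureCounts 1.4.6-p4 over exons of GENCODE M13 with strand setting 1, per the file headers, and mm10 is the assembly per the labels. The labels call the assay total RNA but link a protocol titled for poly(A) RNA. The aligner's version is not given in the sources used here, nor is the kit's strandedness. The other value in the deposited tables is gene length in bp, used here for TPM. No column of another series was present (0).

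Symbols matched 50376 of 50600 genes by identifier. Opposite-strand exon overlap was computed with bedtools 2.31.1; 8189 genes shared a position. Ratios within a library have exact Clopper-Pearson 95% intervals, and changes of a ratio have exact conditional intervals, both for counting error only. A count of 0 stayed 0 in levels, intervals and tests, and 3 counts in its place gave a separate bound. Replicates 1 and 3 were compared by a two-sided exact binomial test on TMM-scaled totals (edgeR 4.0.16), for genes with at least 10 counts, with Benjamini-Hochberg adjustment at 0.05 over all genes. With 1 group, edgeR's quasi-likelihood test had no contrast. DESeq2 1.42.0 gave alternative size factors. The test was checked on simulated counts with counting error only, the spread it assumes. That check does not cover other differences between libraries. Sequences are RefSeq's (GRCm38.p6).

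The 10 factors and the gene lists were chosen with earlier results of these data known. Named genes were all factors, their opposite-strand genes, all T-bet partners and targets (a few listed genes are left out of the text), up to 4 of each other list by mean TPM, and the 3 genes nearest to Tbx21. R 4.3.3 and Python 3.11.15 were used.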

Additional observations from a re-analysis of the deposited data

How the results depend on the processing

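No paired analysis was possible because there is 1 group. Of 12910 genes, 4473 differed between replicates 1 and 3 on TMM scaling, and 8971 did on plain totals; leaving out replicate 1 or 3 and using replicate 2 gave 106 to 576. Of the 8 factors tested, 2 differed on TMM scaling and 5 on plain totals. On scaling by genes without opposite-strand exons 1 factor did, beside 3992 of 12910 genes. By a chi-square test over 3 libraries 4 factors did, beside 5874 of 12920 genes. With replicate 2 in place of replicate 1 or 3, 0 factors differed, where its depth leaves little to detect. The number of factors at 1 TPM in every library was 6 at each threshold tried, which in replicate 2 asks only for 1 count, and 7 without replicate 2.

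Leaving out gene length moved the Runx3 share of the Runx genes from 69.5% to 51.9%, and the ratio of Cbfb to the Runx genes from 1.41 to 0.729; with replicate 2, on 2 Runx counts, that ratio was 2.96. Of 28 log2 ratios to Tbx21 under 6 settings, 4 of 168 values changed sign, all without gene length: Smarca4 (-1.18), Ccl4 (1.11), Il2rb (-0.0223) and Furin (-0.93). A further 40 kept their sign but moved by more than the standard deviation of the ratio over replicates 1 and 3. The ratios to Il2, Il4, Il13 and Socs1 were not among the 28.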
